A study of Mus musculus with 6 samples.

Results

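The elastic fibre and fibrillin genes were examined in the hearts of mice after myocardial infarction (MI). The group was made up of 10 named genes, *Eln*, *Fbn1*, *Fbln1*, *Fbln2*, *Fbln5*, *Efemp2*, *Emilin1*, *Mfap2*, *Mfap4* and *Mfap5*, out of 17441 genes with a value in at least 1 library. They were chosen by name with earlier results of these data known, so the shares over all genes set beside theirs are no test of the group. All 10 were listed in all 6 libraries and passed the filter on low values. RNA was sequenced from heart tissue of male mice, 12 weeks old by their labels and on a C57BL/6 background, 3 days after surgery. By the study's methods the tissue was that below the ligature and not the whole heart. Wild-type mice with sham surgery (WT Sham), wild-type mice whose left anterior descending artery was tied off (WT MI) and *Card9* knockout mice operated on in the same way (Card9 KO MI) each gave 2 libraries. The infarcted hearts of each genotype are also called WT infarcts and KO-labelled infarcts. A *Card9* KO sham group was not analysed here, so the genotypes were compared in infarcted hearts alone. The sources used here do not say which part of *Card9* is deleted, or whether each library came from its own animal, so the p-values measure only the spread between these libraries.

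Elastic fibres give arteries, lungs and heart valves their recoil, and fine ones run through the wall of the heart. Each has a core of cross-linked elastin laid onto a scaffold of fibrillin microfibrils, with fibulins, emilins and microfibril-associated proteins on the surface and at the boundary between both. Fibrillin microfibrils also hold latent TGF-β in the matrix, and after infarction fibroblasts lay down new matrix in the damaged wall.

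The libraries held an estimated 3017433 to 4321098 fragments, read from the steps between low values. The markers of heart tissue were present, the summed FPKM (fragments per kilobase of gene, scaled to the fragments of the library) of 8 cardiomyocyte genes being between 28200 and 59600 in every library, and the values of libraries of the same group correlated across 13120 genes with Pearson's r of 0.980 or 0.981. *Card9*, which encodes an adaptor of innate immune signalling, was listed at 0.99 and 1.03 FPKM after sham surgery, 3.39 and 5.08 in the WT infarcts and 9.85 and 6.94 in the KO-labelled infarcts. The knockout libraries thus held more and not less of it than either wild-type group, and every direction given for Card9 KO MI rests on the label. By the limma test used below, *Card9* was called higher in Card9 KO MI than in WT Sham (log2 fold change 2.21, adjusted p = 2.2e-04). Against WT MI its difference was not called (0.85, adjusted p = 0.11), nor was it in any of 16 alternative analyses. Reads from a transcript that keeps its undeleted part could also be counted, so the value per gene is not a test of the deletion.

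The 10 genes lie on 8 chromosomes of the mm9 build. Elastin itself (*Eln*, chr5:135179651-135223111, minus strand) was annotated with 37 exons, and fibrillin-1 (*Fbn1*, chr2:125126330-125333729, minus strand) was the longest of the genes. The small microfibril-associated proteins were at chr4:140566333-140571899 for *Mfap2*, chr11:61298933-61302402 for *Mfap4* and chr6:122455863-122479308 for *Mfap5*, all on the plus strand, and *Emilin1* was at chr5:31215775-31223651 on the plus strand. Of the fibulins, *Fbln1* was at chr15:85036379-85116965, *Fbln2* at chr6:91162449-91222534 and *Efemp2* at chr19:5473973-5481853 on the plus strand, and *Fbln5* at chr12:102984775-103057265 on the minus strand. FPKM covers the exons of each gene as the authors' annotation had them. In the annotation used here 20.1% of the exon bases of *Fbn1* overlap *Gm9913* and 4.63% of those of *Mfap4* overlap *Mapk7*, both on the opposite strand. Whether the counting used strand is not given in the sources used here, so reads in these stretches cannot be told apart.

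Of the 10 genes, 7 had windows in a RefSeq table of promoters for build GRCm38.p6, whose coordinates are not those of mm9. The bases before the annotated gene are shown for 4 of them, chosen because they differ in how they moved. *Fbn1* and *Mfap2* were higher after infarction and higher again in the libraries labelled Card9 KO MI, *Fbln1* was lower after infarction, and *Fbln5* did not pass the test between the wild-type groups. Each runs 5′ to 3′ in the direction of the gene, and capitals mark a match to one of the motifs searched on both strands.
*Fbn1*, chr2:125506486-125506688, minus strand: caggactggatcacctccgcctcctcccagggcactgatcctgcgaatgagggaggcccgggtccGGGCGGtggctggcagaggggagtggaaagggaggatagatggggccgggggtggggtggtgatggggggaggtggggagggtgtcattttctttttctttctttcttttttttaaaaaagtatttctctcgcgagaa
*Mfap2*, chr4:141010174-141010423, plus strand: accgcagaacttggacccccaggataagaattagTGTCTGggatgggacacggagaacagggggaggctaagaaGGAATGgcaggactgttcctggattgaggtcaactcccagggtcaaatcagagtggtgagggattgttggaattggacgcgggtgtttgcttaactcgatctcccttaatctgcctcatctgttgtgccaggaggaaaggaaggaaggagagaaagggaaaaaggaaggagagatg
*Fbln1*, chr15:85205699-85205948, plus strand: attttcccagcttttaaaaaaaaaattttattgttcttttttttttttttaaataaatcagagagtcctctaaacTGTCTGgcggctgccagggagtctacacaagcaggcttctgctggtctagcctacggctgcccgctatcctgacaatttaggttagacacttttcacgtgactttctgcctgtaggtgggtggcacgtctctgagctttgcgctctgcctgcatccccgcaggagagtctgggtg
*Fbln5*, chr12:101819120-101819369, minus strand: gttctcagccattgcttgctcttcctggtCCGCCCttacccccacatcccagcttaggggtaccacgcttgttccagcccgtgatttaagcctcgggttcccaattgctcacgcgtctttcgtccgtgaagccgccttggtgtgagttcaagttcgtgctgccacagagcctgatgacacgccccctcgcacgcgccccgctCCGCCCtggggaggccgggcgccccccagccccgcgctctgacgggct

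The stretch of *Fbn1* held the letters of an Sp/KLF GC box (GGGCGG), and that of *Fbln5* held them at 2 places on the opposite strand. Those of *Mfap2* and *Fbln1* each held a SMAD element (CAGACA) on the opposite strand, and that of *Mfap2* also the TEAD motif (GGAATG). Over the full 250 bases before each start, GGGCGG was found for 6 of the 7 genes, in 8 of their 12 windows, beside 32.7% of all 32851 windows of that length. CAGACA was found for 4 of the 7, in 5 windows, beside 17.1% of all windows, and GGAATG in 1 window beside 12.6%. No window of the genes held the TATA box letters TATAAA, found in 12.4% of all windows, or the AP-1 letters TGANTCA, found in 6.75%. These motifs share no letters with each other in the stretches shown, and a match describes the letters alone.

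The first question was how the genes differed between infarcted and sham wild-type hearts. At 3 days 7 of the 10 genes were higher in WT MI and 1 was lower by limma on log2(FPKM + 1) with Benjamini-Hochberg adjustment over all 13120 genes tested. Across all genes 27.7% were called higher and 9.39% lower, 37.1% in all. The 10 genes had a median log2 fold change of 1.43, beside 0.185 over all genes tested. With quantile normalization the calls over all genes split into 2288 higher and 2416 lower in place of 3637 and 1232, with upper-quartile scaling into 2603 and 2159, and without the 100 most abundant genes into 2869 and 1830. The median of all genes then moved from 0.185 to -0.07, 0.004 and 0.06, and 7 of the 10 genes were called higher and 1 lower under each scaling. The 7 higher genes were *Fbn1*, *Mfap2*, *Mfap4*, *Mfap5*, *Emilin1*, *Fbln2* and *Efemp2*, while *Eln* and *Fbln5* did not pass the test and *Fbln1* fell.

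**Figure D1:**
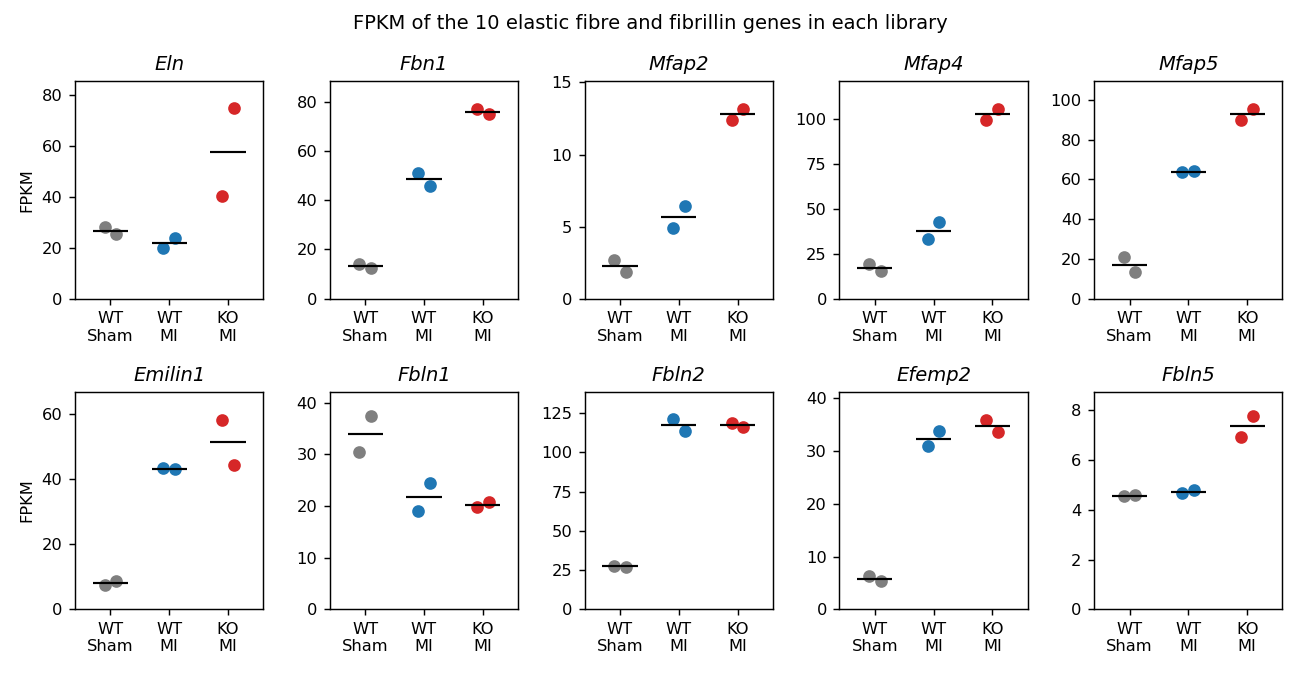
FPKM of each of the 10 genes (y axis, linear from 0, a separate scale for each gene) in the 2 libraries of WT Sham (grey), WT MI (blue) and Card9 KO MI (red, labelled KO MI), with points for libraries and bars for group means. *Fbn1*, *Mfap2*, *Mfap4* and *Mfap5* stand lowest in WT Sham and highest in Card9 KO MI, *Fbln2* and *Efemp2* overlap between both infarcted groups, and the Card9 KO MI libraries of *Eln* lie apart at 40.2 and 74.85 FPKM.

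Fibrillin-1, the backbone of the microfibril, was listed at 14.1 and 12.65 FPKM in WT Sham and at 51.1 and 45.8 in WT MI. The groups did not overlap, and the means differed 3.62-fold (log2 fold change 1.78, SE 0.11, adjusted p = 4.4e-05). *Mfap5*, which encodes a small glycoprotein (MAGP-2) that binds fibrillin, went from 20.75 and 13.4 FPKM to 63.5 and 64.2. Its WT Sham libraries were further apart than those of WT MI, and the log2 fold change was 1.87 (SE 0.18, adjusted p = 2.5e-04). *Mfap2*, which encodes the related MAGP-1, was the least abundant of the genes in WT Sham, at 2.67 and 1.86 FPKM, and reached 4.87 and 6.44 in WT MI. The WT Sham values of *Mfap2* stand for an estimated 10.3 and 6.80 fragments, and its log2 fold change of 1.03 (SE 0.19, adjusted p = 0.0048) is on the scale of FPKM + 1, which understates the 2.50-fold difference of the means.

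*Mfap4*, which encodes a fibrinogen-related glycoprotein that binds elastin and fibrillin, was listed at 19.1 and 15.4 FPKM in WT Sham and at 33.1 and 42.45 in WT MI. Both infarcted libraries were above both sham libraries, with a log2 fold change of 1.08 (SE 0.15, adjusted p = 0.0013). *Emilin1*, whose product sits between the elastin core and the microfibrils, rose from 7.52 and 8.79 FPKM to 43.3 and 43.2. Its log2 fold change of 2.28 (SE 0.15, adjusted p = 5.5e-05) was close to that of *Efemp2*, and the WT MI libraries of *Emilin1* were almost equal.

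The fibulins went separate ways. *Efemp2* encodes fibulin-4, which brings lysyl oxidase to elastin and is needed to form elastic fibres, and it was listed at 6.31 and 5.31 FPKM in WT Sham and at 30.9 and 33.7 in WT MI (log2 fold change 2.29, SE 0.12, adjusted p = 3.0e-05). *Fbln2*, a fibulin of elastic fibres and basement membranes, went from 27.8 and 27.05 FPKM to 121 and 114 and was the most abundant of the genes in WT MI (log2 fold change 2.06, SE 0.09, adjusted p = 1.4e-05). In contrast *Fbln1*, the most abundant in WT Sham at 30.4 and 37.35 FPKM, was at 19.1 and 24.5 in WT MI. It fell by 0.62 on the log2 scale (SE 0.15, adjusted p = 0.016), and the call was lost without WT Sham replicate 2 (adjusted p = 0.096) or without WT MI replicate 1 (adjusted p = 0.11). *Fbln5*, which encodes fibulin-5, a protein that ties elastin to microfibrils and to integrins, was listed at 4.56 and 4.59 FPKM in WT Sham and at 4.69 and 4.78 in WT MI. The 95% interval of its log2 fold change ran from -0.30 to 0.39, around an estimate of 0.04, which turned to between -0.26 and -0.08 when the libraries were scaled in other ways.

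*Eln* was listed at 27.95 and 25.4 FPKM in WT Sham and at 20.0 and 23.6 in WT MI. Both infarcted libraries were below both sham libraries, but the difference did not pass the test (log2 fold change -0.28, SE 0.25, 95% interval -0.87 to 0.31, adjusted p = 0.42). The estimate was -0.49 to -0.43 under the 3 other scalings (adjusted p from 0.18 to 0.24). With only the 2 groups compared, the adjusted p was 0.13. *Eln* transcript thus did not pass the test at 3 days, while that of fibrillin-1 and of most of its partners was called higher. A lower level of *Eln* is not excluded by these values. Without overlap between the libraries, 8 genes were higher and 2 were lower, where 48.3% and 22.1% of all genes did the same. Fewer cells of a type and less RNA per cell cannot be told apart in bulk tissue. Beside these values, the summed FPKM of the 8 cardiomyocyte markers was 58700 and 59600 in WT Sham and 33500 and 34700 in WT MI. Their part in the results was not tested.

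The second question was how the libraries labelled Card9 KO MI differed from WT MI. In that comparison 3 of the 10 genes, *Mfap4*, *Fbn1* and *Mfap2*, were called higher and 0 lower, where 0.816% of all genes were called higher, 0.587% lower and 1.4% in either direction. At an unadjusted p under 0.05, 6 of the 10 passed, all higher, beside 20.0% of all genes in either direction. The 10 genes had a median of 0.54 on the log2 scale, and all genes one of 0.04. Leaving out WT MI replicate 1 or Card9 KO MI replicate 2 left 0 of the 10 called, with 5 and 6 at an unadjusted p under 0.05. Leaving out Card9 KO MI replicate 1 left *Eln* alone, and leaving out WT MI replicate 2 or either WT Sham library left *Mfap4* alone. This comparison shares the WT MI libraries with the first, so the 2 sets of values are not independent.

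**Figure D2:**
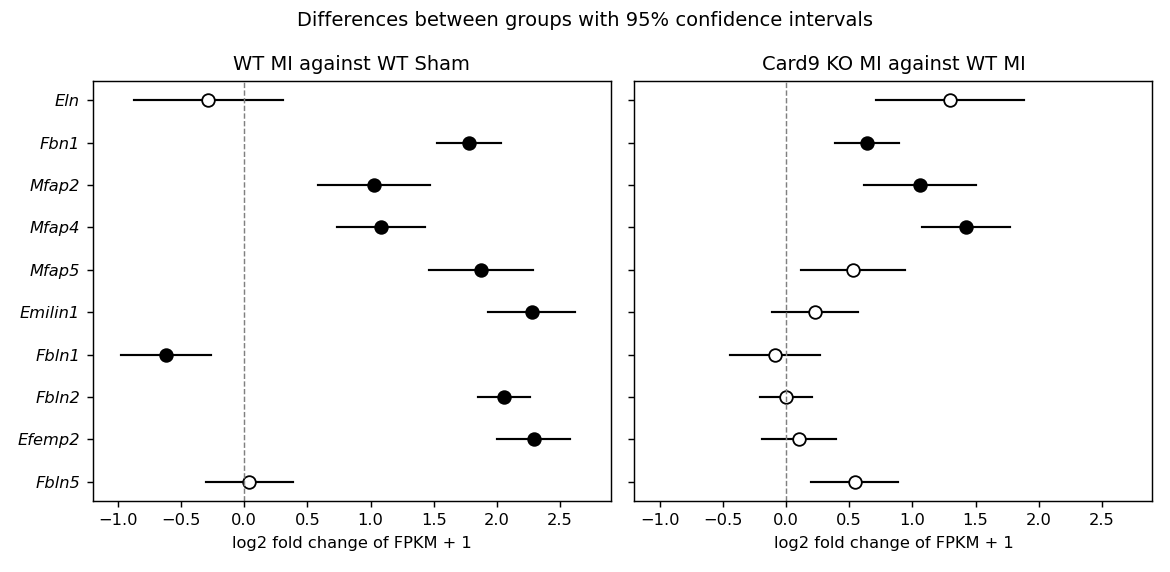
Log2 fold change of FPKM + 1 (x axis) for each of the 10 genes in WT MI against WT Sham (left) and in Card9 KO MI against WT MI (right), with 95% confidence intervals from limma and filled points for adjusted p under 0.05. *Emilin1*, *Fbln2* and *Efemp2* lie above 2 on the left and near 0 on the right, *Eln* lies at 1.30 on the right with the widest interval, and *Mfap4* lies furthest to the right among the filled points there, at 1.43.

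*Mfap4* was listed at 33.1 and 42.45 FPKM in the WT infarcts and at 99.35 and 105 in the KO-labelled infarcts. The lowest Card9 KO MI library was well above the highest of WT MI, and the log2 fold change was 1.43 (SE 0.15, adjusted p = 0.011). It was called in 13 of 17 alternative analyses. The exceptions were no filter on low values (adjusted p = 0.073) and leaving out WT MI replicate 1 (0.095), Card9 KO MI replicate 1 (0.067) or Card9 KO MI replicate 2 (0.058). *Mapk7*, whose exons overlap it, went from 8.27 and 8.24 to 12.4 and 10.5 FPKM, a 1.38-fold difference of means, where that of *Mfap4* was 2.71-fold.

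*Fbn1* went from 51.1 and 45.8 FPKM to 77.1 and 74.8. The libraries of each group were close together and the groups were apart, and the log2 fold change was 0.64 (SE 0.11, adjusted p = 0.043). *Mfap2* was listed at 4.87 and 6.44 FPKM in the WT infarcts and at 12.4 and 13.2 in the KO-labelled infarcts, a log2 fold change of 1.06 (SE 0.19, adjusted p = 0.048). Both were called close to the threshold. *Fbn1* was called in 6 of 17 alternatives and *Mfap2* in 4 of 17, and neither was called when any 1 of the 6 libraries was left out, with adjusted p from 0.056 to 0.20 for *Fbn1* and from 0.055 to 0.29 for *Mfap2*. Their log2 fold changes stayed positive, from 0.56 to 0.72 and from 0.89 to 1.23.

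*Eln* had the second highest log2 fold change of the 10 genes, 1.30 (SE 0.25), and the largest SE. It was listed at 20.0 and 23.6 FPKM in the WT infarcts and at 40.2 and 74.85 in the KO-labelled infarcts, and the adjusted p was 0.058. Both Card9 KO MI libraries were above both WT MI libraries, and 1 of them was far above the other. Without Card9 KO MI replicate 2 the log2 fold change was 0.86 (adjusted p = 0.074), and without replicate 1 it was 1.74 (adjusted p = 0.029). *Eln* was called in 4 of 17 alternatives, with adjusted p from 0.029 to 0.30 over those that left out 1 library.

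*Fbln5* and *Mfap5* did not overlap between the groups but did not pass the adjusted test. *Fbln5* was listed at 4.69 and 4.78 FPKM in the WT infarcts and at 6.94 and 7.79 in the KO-labelled infarcts (log2 fold change 0.54, SE 0.15, adjusted p = 0.11). *Mfap5* was listed at 63.5 and 64.2 FPKM and at 90.0 and 95.4 (log2 fold change 0.53, SE 0.18, adjusted p = 0.16). *Emilin1* was at 43.3 and 43.2 FPKM in the WT infarcts and at 58.2 and 44.4 in the KO-labelled infarcts, where its lower library lay close to the WT MI level (log2 fold change 0.23, SE 0.15, adjusted p = 0.44).

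The other 3 fibulins overlapped between the infarcted groups. *Fbln2* was at 121 and 114 FPKM in the WT infarcts and at 119 and 116 in the KO-labelled infarcts, and the 95% interval of its log2 fold change ran from -0.20 to 0.21. *Efemp2* was at 30.9 and 33.7 and at 35.95 and 33.5 FPKM, with an interval from -0.19 to 0.39. *Fbln1* was at 19.1 and 24.5 and at 19.7 and 20.8 FPKM, with an interval from -0.45 to 0.27. The means of *Fbln2* and *Efemp2* had differed 4.28-fold and 5.56-fold between WT MI and WT Sham. The sign of the *Fbln2* estimate, 0.0017, turned under some alternatives, as its interval around 0 allows. In all, 7 of the 10 genes were higher without overlap and 0 lower, where 30.8% of all genes were higher and 21.9% lower without overlap.

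Against WT Sham, all 10 genes were called in Card9 KO MI, 9 higher and *Fbln1* lower, where 34.8% of all genes were called higher and 14.3% lower, 49.1% in all. The same 9 genes were higher without overlap and *Fbln1* lower, beside 51.6% and 24.5% of all genes. The 10 genes had a median of 2.24 on the log2 scale, beside 0.24 over all genes. With upper-quartile scaling all genes split into 3230 higher and 2884 lower in place of 4569 and 1875, and with quantile normalization into 2841 and 3409; 8 of the 10 genes were then called higher and 1 lower. Without the 100 most abundant genes the split was 3642 and 2527, and 9 of the 10 genes were called higher. *Mfap4* (2.51), *Emilin1* (2.50), *Fbn1* (2.42) and *Mfap5* (2.40) had the highest log2 fold changes. *Eln* had a log2 fold change of 1.01 (SE 0.25, adjusted p = 0.012), which was 0.57 without Card9 KO MI replicate 2 (adjusted p = 0.025) and was not called without WT Sham replicate 2 (0.95, adjusted p = 0.064). *Fbln5* had a log2 fold change of 0.58 (SE 0.15, adjusted p = 0.013), and its call was lost without Card9 KO MI replicate 2 (0.51, adjusted p = 0.074), with upper-quartile scaling (0.37, adjusted p = 0.078) and with quantile normalization (0.19, adjusted p = 0.33).

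The make-up of the elastic fibre transcripts was then compared on the FPKM scale, which is per length. Their summed FPKM was 161 and 152 after sham surgery, 392 and 402 in the WT infarcts and 559 and 586 in the KO-labelled infarcts. The shares of this sum were not tested, and a gene's share falls when others rise. *Eln* made up 17.3% and 16.8% of it in WT Sham, 5.10% and 5.87% in the WT infarcts and 7.19% and 12.8% in the KO-labelled infarcts. *Fbln1* went from 18.8% and 24.6% after sham surgery to 4.87% and 6.09% in the WT infarcts and to 3.53% and 3.55% in the KO-labelled infarcts. *Fbln2* had the highest share in every infarcted library, 31.0% and 28.2% in the WT infarcts and 21.25% and 19.9% in the KO-labelled infarcts. *Mfap4* held 8.44% and 10.6% in the WT infarcts and 17.8% and 18.0% in the KO-labelled infarcts.

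**Figure D3:**
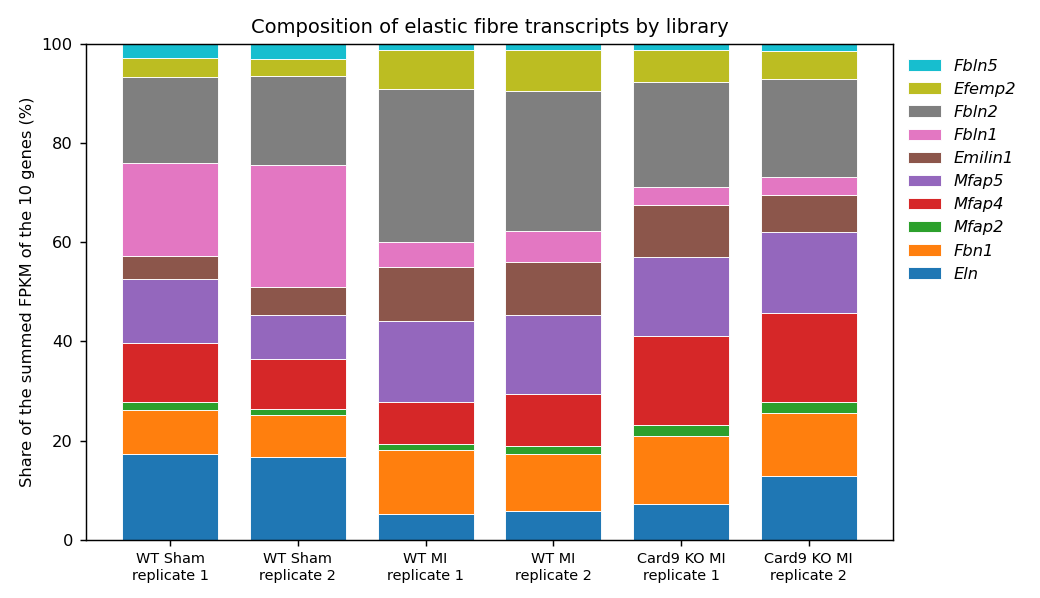
Share of the summed FPKM of the 10 genes (y axis, percent, stacked to 100) in each of the 6 libraries, with 1 colour for each gene. The *Fbln1* and *Eln* segments shrink from WT Sham to WT MI, the *Fbln2* segment is widest in WT MI, and the *Mfap4* segment is widest in Card9 KO MI.

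The order of the levels changed with infarction. In WT Sham it ran from *Fbln1* (mean 33.9 FPKM) through *Fbln2*, *Eln*, *Mfap4*, *Mfap5*, *Fbn1*, *Emilin1*, *Efemp2* and *Fbln5* to *Mfap2* (2.27). The libraries of *Fbln2* and *Eln*, of *Mfap4* and *Mfap5*, and of *Mfap5* and *Fbn1* overlapped there. In WT MI it ran from *Fbln2* (117) through *Mfap5*, *Fbn1*, *Emilin1*, *Mfap4*, *Efemp2*, *Eln*, *Fbln1* and *Mfap2* to *Fbln5* (4.74), with overlaps between *Mfap4* and *Efemp2* and between *Eln* and *Fbln1*. In Card9 KO MI *Fbln2* (118) was followed by *Mfap4* (102), *Mfap5*, *Fbn1*, *Eln*, *Emilin1*, *Efemp2*, *Fbln1*, *Mfap2* and *Fbln5* (7.37), and the libraries of *Eln* overlapped those of both its neighbours. *Mfap4* thus moved from the fifth place in WT MI to the second.

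Across the 6 libraries, which form 3 groups, the log2 values of *Fbln2*, *Efemp2* and *Emilin1* followed each other with Pearson's r of 0.99 or more, and *Mfap2* and *Mfap4* did so with r of 0.997. *Eln* followed *Fbln5* most closely (r = 0.925) and *Fbln2* only weakly (r = 0.273). *Fbln1* had a negative r with every other gene, from -0.943 with *Mfap5* to -0.305 with *Eln*. The 6 points share their groups and the depth of their libraries, so these coefficients are a description.

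Genes whose profile was nearest to those of the group were sought among 8764 other genes with a mean of at least 5 FPKM, by Euclidean distance between centred log2(FPKM + 1) profiles over the 6 libraries. Nearest to the mean of the 10 genes were *Slc29a3* (distance 0.17), *Col15a1* (0.18), *Cmtm3* (0.20), *Shisa5* (0.20) and *Sdc3* (0.20). *Col15a1*, which encodes a collagen of basement membranes, was listed at 41.1 and 41.0 FPKM in WT Sham, 85.6 and 94.6 in the WT infarcts and 148 and 145 in the KO-labelled infarcts. Nearest to *Eln* were *Ifi203* (0.26), *Mndal* (0.37), *Rsad2* (0.42), *Gbp3* (0.43) and *Cmpk2* (0.50). All 5 are genes known to be induced by interferon. Each was highest in Card9 KO MI replicate 2, where *Eln* was highest, but their choice by distance to *Eln* builds in this likeness. *Ifi203* was listed at 27.3 and 47.2 FPKM in the Card9 KO MI libraries and *Rsad2* at 12.4 and 25.9. *Ifi203* and *Mndal* are close relatives that can share reads, so their values are uncertain.

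**Figure D4:**
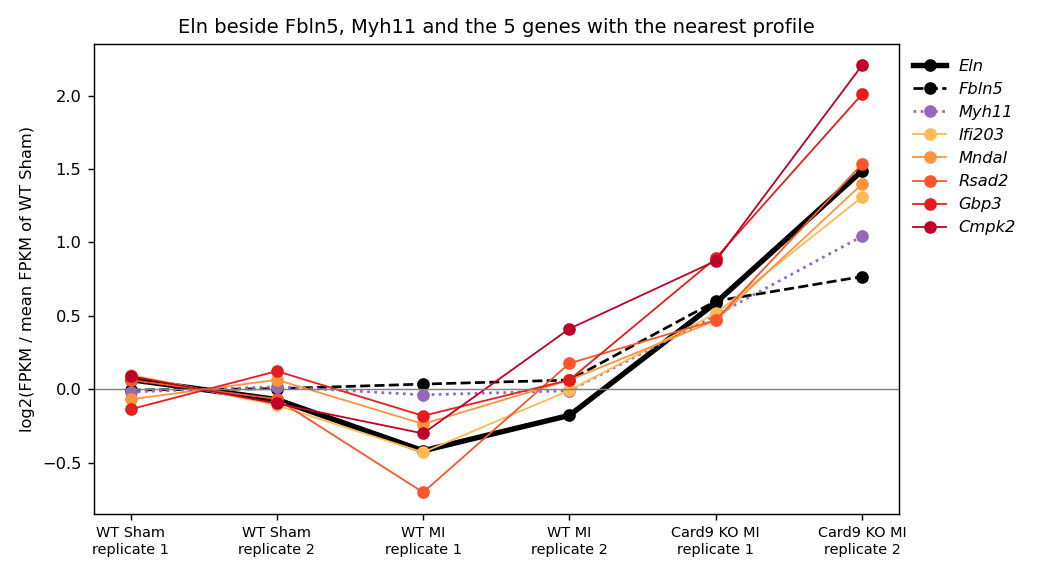
Log2 of FPKM over the mean FPKM of WT Sham (y axis) in each of the 6 libraries (x axis) for *Eln*, *Fbln5*, the smooth muscle gene *Myh11* and the 5 genes nearest to *Eln*. Lines join the values of a gene and stand for no order of the libraries. *Eln* and its 5 nearest genes lie highest in Card9 KO MI replicate 2 and at or below the WT Sham mean in WT MI replicate 1. The 5 were chosen for their nearness to *Eln*, so this likeness is built in.

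Partners of the elastic fibre were taken from lists of 66 genes, of which 56 were tested. In WT MI against WT Sham 33 were called higher, 3 lower and 20 not, with a median log2 fold change of 0.60. In Card9 KO MI against WT MI 4 were called higher, 2 lower and 50 not, with a median of 0.20. The shares over all genes are those given above. Under 3 other scalings no called gene of these lists changed direction, and 30 of the 36 calls after infarction and 4 of the 6 between the infarcted groups were made under all 3. Each of the 6 calls between the infarcted groups (*Ltbp2*, *Ltbp4*, *Loxl2*, *Fkbp10*, *Efemp1* and *Mmp9*) was made in 5 to 7 of the 16 or 17 alternatives.

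Lysyl oxidases cross-link elastin and collagen, and all 5 were called higher in WT MI. *Lox* went from 1.83 and 2.09 FPKM in WT Sham to 60.0 and 58.7 in WT MI (log2 fold change 4.35, SE 0.12, adjusted p = 2.0e-06), while the transcript of *Eln* did not pass the test. Protein was not measured here. *Loxl1*, *Loxl2*, *Loxl3* and *Loxl4* had log2 fold changes of 1.83, 2.27, 2.54 and 1.49. *Loxl2* alone was called again in the KO-labelled infarcts, at 85.8 and 79.0 FPKM beside 47.4 and 56.1 in the WT infarcts (log2 fold change 0.66, adjusted p = 0.048). *Lox* was at 79.6 and 68.2 FPKM there (0.31, adjusted p = 0.21), *Loxl1* at 0.33 (adjusted p = 0.12) and *Loxl3* at 0.60 (adjusted p = 0.11) on the log2 scale, and *Loxl4* at -0.02.

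Latent TGF-β binding proteins dock on fibrillin. *Ltbp2*, which does not bind latent TGF-β itself, was listed at 1.23 and 0.98 FPKM in WT Sham, 16.0 and 15.1 in the WT infarcts and 30.1 and 25.8 in the KO-labelled infarcts. It was called at both steps, with log2 fold changes of 2.98 (adjusted p = 2.4e-05) and 0.80 (adjusted p = 0.048). *Ltbp4*, which is needed for elastic fibre assembly together with fibulin-5, was listed at 108 and 110 FPKM in WT Sham, 64.0 and 68.4 in the WT infarcts and 97.75 and 98.1 in the KO-labelled infarcts. It fell by 0.71 on the log2 scale after infarction (adjusted p = 7.4e-04) and was higher in Card9 KO MI than in WT MI by 0.56 (adjusted p = 0.035). Its difference between Card9 KO MI and WT Sham was -0.15 (adjusted p = 0.19). Those groups did not overlap, and *Ltbp4* was called lower there under all 3 other scalings (-0.40 to -0.27). *Ltbp3* was called higher in WT MI (0.68, adjusted p = 0.0048) and *Ltbp1* was not (0.14).

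**Figure D5:**
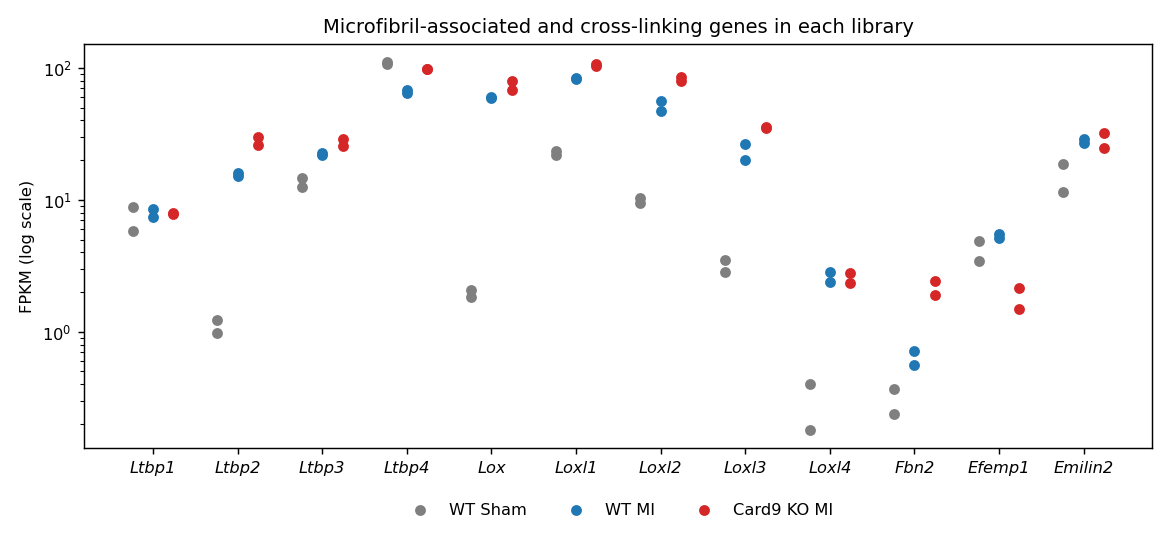
FPKM (y axis, log scale) of latent TGF-β binding proteins, lysyl oxidases, *Fbn2*, *Efemp1* and *Emilin2* in the 2 libraries of WT Sham (grey), WT MI (blue) and Card9 KO MI (red). *Lox*, *Ltbp2* and the other lysyl oxidases lie apart from WT Sham in both infarcted groups, *Ltbp4* lies lowest in WT MI, and *Efemp1* lies lowest in Card9 KO MI.

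Among 10 tested relatives of the group, *Emilin2* (0.89) and *Mfap3* (0.61, called under 1 of the 3 other scalings) were higher in WT MI and *Vtn*, which encodes vitronectin, lower (-0.82). *Efemp1*, which encodes fibulin-3, was listed at 3.42 and 4.86 FPKM in WT Sham, 5.47 and 5.12 in the WT infarcts and 1.48 and 2.14 in the KO-labelled infarcts. It was the only relative called between the infarcted groups, and it was lower in the KO-labelled infarcts (log2 fold change -1.17, adjusted p = 0.048) where its family members *Fbln2* and *Efemp2* overlapped. *Fbn2*, the fibrillin of early development, was listed at 0.24 and 0.37 FPKM, 0.56 and 0.72, and 2.43 and 1.89 in the same order (Card9 KO MI against WT MI 0.94, adjusted p = 0.094; against WT Sham 1.27, adjusted p = 0.0029). *Fbln7* and *Emilin3* were not tested. *Mmrn1*, *Mmrn2*, *Mfap1a*, *Mfap3l* and *Hmcn1* were not called in any comparison under the reported scaling, but in Card9 KO MI against WT Sham *Mfap3l* was called lower under all 3 other scalings (-0.92 to -0.61) and *Mmrn1* and *Hmcn1* under 1 each.

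Of 7 tested ADAMTS and ADAMTS-like genes of the microfibril, 0 were called in WT MI against WT Sham and 0 in Card9 KO MI against WT MI by limma. At an unadjusted p under 0.05 the counts were 0 and 4, the latter 3 higher and 1 lower. *Adamts10*, *Adamtsl2* and *Adamtsl3* were higher and *Adamtsl4* lower in Card9 KO MI than in WT Sham. Proteases listed as able to cut elastin rose with infarction in 7 of 8 cases tested, among them *Mmp12* (3.36), *Ctss* (3.27) and *Mmp14* (2.27). Between the infarcted groups 7 of the 8 had a log2 fold change above 0, 0 were called higher and 1 lower by limma, and 4 were higher and 1 lower at an unadjusted p under 0.05. Their summed FPKM was 747 and 879 in the WT infarcts and 1440 and 1050 in the KO-labelled infarcts. *Ctsb* alone was at 343 and 421 and at 653 and 481 FPKM, so the sum is no measure of the cutting of elastin. *Mmp9*, a gelatinase, was lower in the KO-labelled infarcts, at 3.26 and 2.94 FPKM beside 24.9 and 10.2 in the WT infarcts (-2.05, adjusted p = 0.045). Of the inhibitors 4 of 6 were higher in WT MI, with *Timp1* at 5.46, and *Timp4* was lower (-1.11). Among those 4, *Timp3* was called under 0 and *Cst3* under 1 of the 3 other scalings. Of 10 genes listed for elastin receptors and integrins, 8 were higher in WT MI, *Neu1* among them under 0 of the 3 other scalings. Between the infarcted groups 0 of the 10 were called, with 4 higher and 0 lower at an unadjusted p under 0.05. Of 6 tested genes of secretion and processing 5 were higher in WT MI, and *Fkbp10*, a chaperone of elastin and collagen, was also higher in Card9 KO MI than in WT MI (0.71, adjusted p = 0.038).

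Markers of cell types were set beside these results. Of 7 activated fibroblast markers, 6 were called higher in WT MI and 4, *Postn*, *Cthrc1*, *Ddah1* and *Acta2*, were higher again in Card9 KO MI. Their summed FPKM was 65.8 and 76.9 after sham surgery, 398 and 445 in the WT infarcts and 1090 and 1050 in the KO-labelled infarcts. Of 10 general fibroblast markers, 7 were higher in WT MI, *Dpt* and *Ddr2* among them under 1 of the 3 other scalings, and *Gsn* was lower. In Card9 KO MI against WT MI, 1 (*Col1a1*) was higher and *Gsn* lower. Their sum was 924 and 932, 1440 and 1810, and 2290 and 2210 FPKM. Most of its rise was *Col1a1* (45.4 and 41.05, 359 and 516, and 932 and 870) and *Col3a1* (48.2 and 44.7, 375 and 489, and 716 and 662). Between the infarcted groups 7 of the 10 had a log2 fold change above 0. *Gsn*, *Dcn* (-0.16) and *Pdgfra* (-0.52) were below 0, *Pdgfra* going from 15.2 and 15.9 to 10.6 and 10.4 FPKM. Of 8 smooth muscle and pericyte markers, 3 were higher and 2 lower in WT MI, and *Tagln* and *Acta2* were higher in Card9 KO MI. Their sum was 263 and 303, 329 and 314, and 569 and 553 FPKM. Most of its rise between the infarcted groups was *Acta2* (117 and 97.2 to 252 and 239) and *Tagln* (37.6 and 44.6 to 125 and 106). All 8 had a log2 fold change above 0 there. *Acta2* is also in the list of activated fibroblast markers, so it counts in both sums. *Myh11*, which encodes a smooth muscle myosin, was listed at 5.18 and 5.31, 5.11 and 5.21, and 7.44 and 10.8 FPKM, and *Cnn1* at 2.23 and 1.66, 3.73 and 4.99, and 8.19 and 11.3. Both were highest in Card9 KO MI replicate 2, as *Eln* was. Of the 8 markers, 5 were higher in that library than in Card9 KO MI replicate 1, while *Tagln*, *Acta2* and *Smtn* were higher in replicate 1. Higher in replicate 2 were also 8 of 8 cardiomyocyte and 5 of 5 adipocyte markers. The same held for 4 of 10 general and 2 of 7 activated fibroblast markers, and 2 of 7 endothelial ones. It held for 1 of 10 macrophage, 1 of 6 neutrophil and 1 of 6 epicardial markers. What sets these 2 libraries apart was not tested. *Rgs5* and *Kcnj8*, markers of pericytes, were lower in WT MI (-0.58 and -0.47).

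Of 10 macrophage markers, 9 were called higher in WT MI and 0 were called between the infarcted groups. At an unadjusted p under 0.05, 5 were higher and 1, *Cd163*, lower in Card9 KO MI than in WT MI. The macrophage sum was 354 and 298, 1290 and 1630, and 2590 and 1860 FPKM. Of 6 neutrophil markers tested, 6 were higher in WT MI and 0 were called between the infarcted groups (2 lower and 0 higher at an unadjusted p under 0.05), with a sum of 7.64 and 5.40, 212 and 92.9, and 59.8 and 46.7 FPKM. Of 8 cardiomyocyte markers 6 were lower in WT MI and 0 differed by the test between the infarcted groups (3 lower and 0 higher at an unadjusted p under 0.05), with a sum of 28200 and 32400 in Card9 KO MI. Of 7 endothelial markers *Pecam1* was higher, though under 0 of the 3 other scalings, and *Kdr* lower in WT MI, and their sum lay between 345 and 422 FPKM in every library. Epicardial and adipocyte markers summed to at most 16.0 FPKM, with *Msln* at most 0.46, *Upk1b* at 0 in 4 libraries and *Adipoq* between 0.19 and 2.38. The part of these cell types in the values of the elastic fibre genes was not tested.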

How the data were processed

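Total RNA from mouse heart was enriched for mRNA and sequenced on an Illumina instrument. Per the labels and the study's methods the authors filtered the reads, mapped them to mm9 with BWA and Bowtie2, and deposited FPKM values, 1 per NCBI gene number and library, for genes above 0. Tool versions, gene annotation and strand setting are not given in the sources used here. FPKM is relative to the other genes of its library, so a change of a few abundant genes shifts all others. Genes without a value were set to 0. Since 71.3% to 75.6% of low values came out as whole fragments within 0.15, counts were not rebuilt, and fragment numbers are estimates that cover counting error only.

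Groups came from the labels. Values were tested as log2(FPKM + 1), a scale on which changes of low genes are understated, for 13120 genes with at least 1 FPKM in at least 2 libraries. The 3 group means were fitted in 1 model with limma 3.58.1 in R 4.3.3 (eBayes with trend), with Benjamini-Hochberg adjustment over all genes tested and calls at 0.05. An exact permutation test of 2 against 2 libraries cannot go below p = 0.333 and was not used. The code was tested on simulated data. Symbols were found for 17390 of 17441 gene numbers through RefSeq, positions come from the mm9 GENCODE annotation, and promoters from RefSeq on GRCm38.p6. Named are the 10 genes, list genes called in a comparison, all relatives, latent TGF-β binding proteins and lysyl oxidases, and the 5 genes nearest in profile. The 10 genes and the lists were chosen with earlier results of these data known, so no test of a list was run. *Mapk7* was named for its overlap with *Mfap4* after the values were seen. Alternatives were other pseudocounts, filters, scalings, models and call rules, and each library left out.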

Additional observations from a re-analysis of the deposited data

How the results depend on the processing

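Of 540 values, the log2 fold changes of the 10 genes in 3 comparisons under 18 alternatives, 490 kept their direction and their side of the threshold, 38 were no longer called, 4 became called and 8 changed sign. Of the 38 lost calls, 29 were in Card9 KO MI against WT MI, where only 3 genes had been called. In Card9 KO MI against WT Sham 6 were lost, and in WT MI against WT Sham 3. The 4 gained calls and 5 of the 8 changes of sign were also in Card9 KO MI against WT MI. The changes of sign were in estimates near 0. For *Fbln5* in WT MI against WT Sham they were -0.14 with upper-quartile scaling, -0.26 with quantile normalization and -0.084 when scaled without the 100 most abundant genes. For *Fbln2* in Card9 KO MI against WT MI they were -0.036 with upper-quartile scaling, -0.019 without the 100 most abundant genes, -0.045 without WT MI replicate 2 and -0.01 without the first Card9 KO MI library (from -0.045 to 0.049 over those that left out a library), and for *Fbln1* 0.082 without WT MI replicate 2.

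In Card9 KO MI against WT MI the 3 genes called became 1 with log2(FPKM + 0.1), 1 with only the 2 groups compared, 1 without the trend, 1 with the replicate block and 0 with no filter (6 at an unadjusted p under 0.05), and 0 to 1 with a library left out (5 to 6 at an unadjusted p under 0.05). The 1 called in each of the first 4 was *Mfap4*. Over all genes the 184 calls became 80 with log2(FPKM + 0.1), 312 with log2(FPKM + 5), 12 with no filter, 284 with a mean of at least 5 FPKM, 297 over genes listed in all 6 libraries, 101 with only the 2 groups compared, 58 without the trend, 71 with the replicate block, 96 with a fold of at least 2, and 8 to 96 with a library left out. A fold of at least 2 left 1707 of 4869 calls in WT MI against WT Sham and 2544 of 6444 in Card9 KO MI against WT Sham, and leaving out a library left 2883 to 4675 in the former. The cause of these changes was not tested. Some alternatives also use more genes, fewer genes or fewer libraries. Across genes, samples with the same replicate number did not deviate together (r from -0.008 to 0.02 between groups), so the main fit did not pair them. A pairing with small effects, or with effects on few genes, could be missed by this.

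With 2 libraries a group and an estimated 3017433 to 4321098 fragments in each, the least abundant gene in WT Sham, *Mfap2*, rests on 6.80 to 65.6 estimated fragments. Between the infarcted groups the calls of *Fbn1* and *Mfap2* are close to the threshold, that of *Mfap4* is lost without some single libraries, and the estimate of *Eln*, which was not called, rests on libraries that differ from each other.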
